A study of Sus scrofa with 2 samples.

Results

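Chromosome 7 of the pig was followed along its whole length in an angiosarcoma-like liver tumor and in non-tumor control liver. Its members were the probes whose design position lies on chromosome 7, and there were 9638 of them among 177440 probes on each array, or 5.73% of the probes on chromosomes 1 to 18. Copy number was measured by array-based comparative genomic hybridization (aCGH), with 1 array for the tumor and 1 for the control tissue, so no test between the tissues was possible and all spreads given here are over probes or windows within an array. The tumor came from a female pig whose liver was resected 10 months after a single intraperitoneal injection of 200 mg/kg diethylnitrosamine (DENA), and its DNA was isolated from micro-dissected, paraffin-embedded tissue. The control tissue was also female liver, and the treatment text is attached to both samples, so whether the control animal had received DENA is not settled. Tissue DNA carried the dye Cy3 and DNA of female reference liver the dye Cy5 on either array, and each array lay on a slide of its own, so that slide and tissue cannot be told apart.

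In aCGH, tissue DNA and reference DNA compete for probes whose place in the genome is known, and their log2 signal ratio follows the relative copy number. For a pure sample of diploid cells, the loss of 1 of 2 copies corresponds to a log2 ratio of -1 and 1 added copy to 0.58, and admixed normal cells pull both values towards 0. DENA is converted in hepatocytes to a reactive product that alkylates DNA, and angiosarcoma is a malignant tumor of the endothelium that lines vessels. Pig chromosome 7 carries the swine leukocyte antigen complex, which is the major histocompatibility complex of the pig, and the gene of the endothelial growth factor VEGFA. The scanner files give probe positions without a genome build, gene names or probe sequences, so positions are those of the array design and no value is assigned to a gene.

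The probes of chromosome 7 ran from position 95276 to 136319145 and filled 137 windows of 1 Mb. Each probe was 45 bases long, and the median distance between neighbours was 10175 bp. A window held a median of 75 probes, with a range from 9 to 99, and 4 windows held under 20. Coverage was thinner in places, as from 83000001 to 90000000, where the windows held 21 to 40 probes each. The widest gap between neighbouring probes, 0.515 Mb, lay between 26604895 and 27120076. The median processed signal on chromosome 7 was 851 in the tumor channel and 803 in the reference channel beside it, and on the other array 818 in the tissue channel and 782 in the reference channel. Both channels were well above background at 83.1% of the probes on the tumor array and at 80.2% on the control array. Noise, taken from log2 differences between neighbouring autosomal probes, was 0.40 in the tumor hybridisation and 0.42 in the other, so a single probe says little and the description rests on windows and runs of probes. Single probes at or below -1 numbered 286 on the tumor array (2.97%, against 3.03% of all autosomal probes) and 165 on the control array (1.71%, against 2%). Probes at or above 1 numbered 138 (1.43%, against 2%) and 312 (3.24%, against 3.56%). Far outlying probes were thus about as frequent on chromosome 7 as elsewhere, or rarer.

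Chromosome 7 was less even in the tumor than in the control tissue. Its tumor window medians ranged from -0.56 to 0.62 with an SD over windows of 0.20, while those of the control array ranged from -0.21 to 0.27 with an SD of 0.095. The median over windows was -0.04 on the tumor array (order-statistic 95% interval -0.11 to 0.01) and -0.0062 on the control array (-0.02 to 0.02), where the intervals describe windows of 1 array, which are not independent of each other. Below 0 lay 78 of the 137 tumor windows (56.9%), against 43.9% of all autosomal windows, and 69 of the control windows (50.4%), against 46.2%. No window reached the level of 1 lost copy in a pure sample, and 1 window of the tumor array exceeded that of 1 added copy. Low windows, with a median at or below -0.25, numbered 25 of 137 on the tumor array (18.2%), against 12.1% of all autosomal windows on that array. High windows, at or above 0.25, numbered 8 (5.84%), against 9.46% of all autosomal windows. On the control array chromosome 7 had 0 low windows, where 0.326% of all autosomal windows were low, and 1 high window, where 0.699% were high. With normexp background correction there were 38 low windows in the tumor (27.7%), against 18.4% of all autosomal windows, and 17 in the control tissue (12.4%), against 9.14%. Windows of 2 Mb gave 8 low of 69 on the tumor array (11.6%), against 11.3%. Removal of the brightness trend described below left 0 low tumor windows, against 0.0932%.

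**Figure D1:**
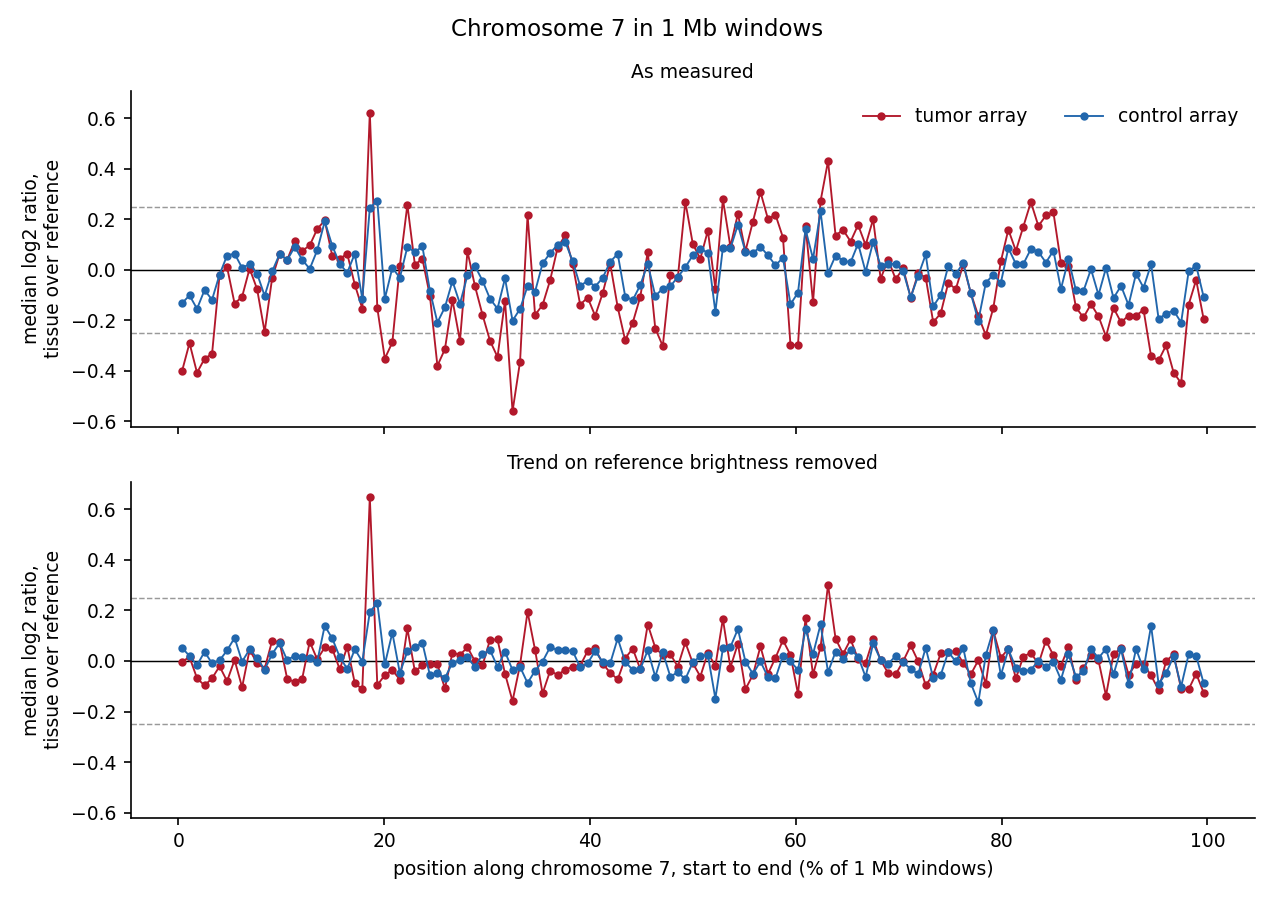
Median log2 ratio of tissue over reference in the 137 windows of chromosome 7, from its start to its end as a percent of the windows, with the tumor array in red and the control array in blue, dashed lines at 0.25 on either side of 0, and the same values after removal of a trend on reference brightness in the lower panel. The tumor array swings between -0.56 and 0.62 in the upper panel, and in the lower panel its highest window, at 0.65, stands apart.

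The low windows of the tumor array lay in blocks. The first 6 windows, up to position 6000000, were all below 0, with a median of -0.34 and values from -0.41 to -0.02, and 5 of them were low. The same 6 windows were all below 0 on the control array too, with a median of -0.11 and values from -0.15 to -0.02. The longest run of 1 sign was at the other end of the chromosome, where all 18 windows from 119000001 to 137000000 were below 0 on the tumor array, with a median of -0.19, a lowest value of -0.45 and a highest of -0.04. On the control array 14 of these 18 windows were below 0, with a median of -0.08. Both chromosome ends were thus below 0 on both arrays in these values, and further from 0 on the tumor array. With the brightness trend described below removed, the losses called at the ends averaged -0.07 and -0.03 in the tumor and 0.04 and 0.03 in the control tissue, where the direction turned. The medians of the window runs were then -0.04 and -0.04 in the tumor, with 5 of 6 and 13 of 18 windows below 0. In the control tissue they were 0.01 and -0.01, with 2 of 6 and 9 of 18 windows below 0.

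Between the ends, blocks below 0 alternated with blocks above 0. From 33000001 to 38000000 the tumor array had 5 windows below 0 with a median of -0.28, and from 39000001 to 46000000 it had 7 with a median of -0.28. The control array medians over these blocks were -0.13 and -0.11. The tumor medians with the brightness trend removed were -0.010 and -0.015, and 2 of the 5 and 2 of the 7 windows turned above 0. The control medians were then -0.048 and -0.023, so by the median of windows the control array was the lower in both blocks. The means over the probes of the losses called in these stretches went the other way. They were -0.033 and -0.015 on the tumor array, against -0.014 and 0.022 on the control array. The lowest window of the chromosome belonged to the second block and ran from 44000001 to 45000000, with -0.56 on the tumor array (SD 0.23, 12 probes) and -0.20 on the control array (SD 0.21). It was a thin window, but all 12 of its probes were below 0 on the tumor array and 10 of them on the control array, and 100% were well above background on both. Next in depth were the windows that start at 133000001, with -0.45 on the tumor array, beside -0.21 on the control array, and at 2000001, with -0.41 and -0.15.

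These 4 blocks held 18 of the 25 low windows. The other 7 were the windows that start at 27000001, 28000001, 59000001, 64000001, 81000001, 82000001 and 107000001, with medians from -0.35 to -0.26, and no low window lay between 5000000 and 27000000.

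Blocks above 0 lay between these. From 13000001 to 23000000 the tumor array had 10 windows above 0 with a median of 0.07, and 9 of these were above 0 on the control array, whose median was 0.05. From 72000001 to 81000000 it had 9 windows above 0 with a median of 0.20 and values from 0.07 to 0.31, and all 9 were above 0 on the control array, with a median of 0.07. A further block of 10 windows from 109000001 to 119000000 had a median of 0.17 on the tumor array and of 0.04 on the control array, where 8 of the 10 were above 0. With the brightness trend removed the tumor medians of these 3 blocks became 0.03, 0.01 and 0.02. On the tumor array 4 of 10, 4 of 9 and 3 of 10 windows turned below 0. The control medians were then 0.016, -0.0020 and -0.024, with 2 of 10, 5 of 9 and 7 of 10 windows below 0. In the blocks that start at 72000001 and at 109000001 the control median thus changed sign. A block of 8 windows from 85000001 to 93000000 had a median of 0.17 on the tumor array and of 0.05 on the control array. With the trend removed its medians were 0.07 and 0.03, and 7 of 8 tumor and 6 of 8 control windows were above 0. The 8 high windows start at 25000001, 30000001, 67000001, 72000001, 77000001, 85000001, 86000001 and 113000001. Those other than the first and that at 86000001 had medians from 0.26 to 0.31 on the tumor array, and that at 85000001 had 0.27 there and 0.23 on the control array, with SDs over its 39 probes of 0.42 and 0.60 and a median difference of tumor minus control at the same probes of -0.07. As measured, the tumor array thus went the same way as the control array along most of the chromosome, with a larger swing.

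That likeness held window by window. The windows had the same sign on both arrays in 110 of 137 cases (80.3%), against 79.7% of all autosomal windows, and in 113 the tumor value was further from 0 (82.5%), against 83.2%. Across the 137 windows, Pearson's r between the arrays was 0.76 and Spearman's rho 0.79, given as a description because the windows share their probes and the same kind of reference on both arrays. The corresponding r over the 2008 windows of the other autosomes was 0.77, so chromosome 7 did not stand out. Of the 25 low windows of the tumor array, 22 were below 0 on the control array, where their median was -0.13 and their range -0.21 to 0.02. Over all autosomes 250 of 259 low windows were below 0 there. Of the 8 high windows, 7 were above 0 on the control array, where their median was 0.09, and 190 of 203 over all autosomes.

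**Figure D2:**
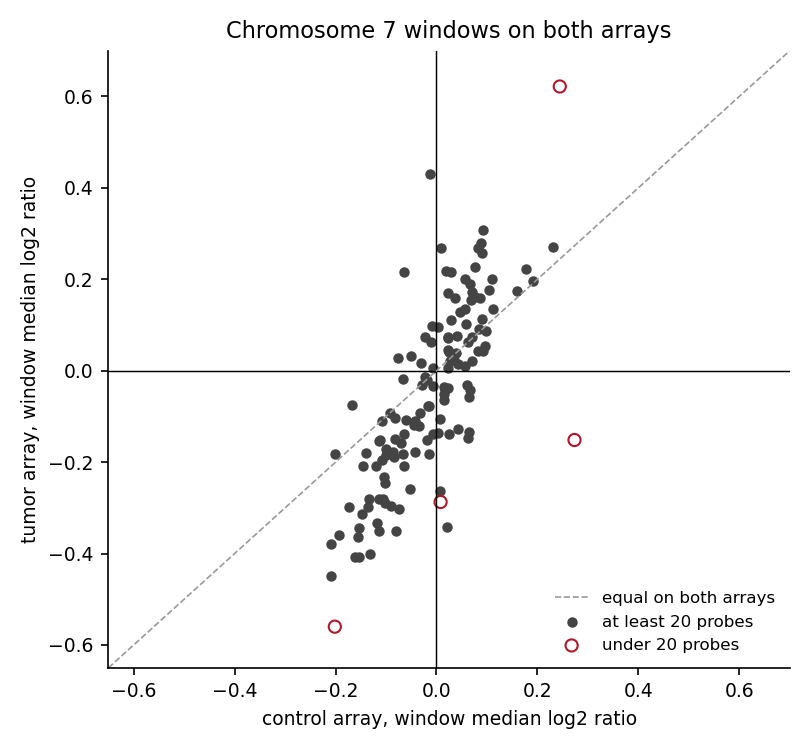
Window median log2 ratios of chromosome 7 on the control array (x axis) and the tumor array (y axis), 1 point per window, with open circles for windows of under 20 probes and a dashed line of equal values. Of the 137 windows, 110 lie in the quadrants of equal sign, and the highest and lowest tumor values, 0.62 and -0.56, are thin windows.

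The difference of the arrays at the same probes was small in most windows, and it too moved with the reference brightness described below. The window median of tumor minus control had a median of -0.04 over the chromosome and an SD over windows of 0.11, with values from -0.34 to 0.24, and 87 of 137 were below 0 (63.5%), against 52.4% of all autosomal windows. Windows at or below -0.25 in this difference numbered 3 of 137 (2.19%), against 1.82% of all autosomal windows, and 0 were at or above 0.25, against 0.932%. The lowest was the window from 26000001 to 27000000, at -0.34, which has 9 probes and had a median of -0.15 on the tumor array and of 0.27 on the control array. The window from 28000001 to 29000000 followed at -0.29 with 18 probes, and the window from 1000001 to 2000000 at -0.25 with 69 probes. Only the last of these has 20 probes or more, and centring each array on the mode of its ratios in place of the median raised the count from 3 to 20, all low (14.6%, against 10.3% of all autosomal windows). The count of low differences was 0 with normexp background correction, against 0.0932% of all autosomal windows, 0 with windows of 2 Mb, against 1.49%, and 1 with the brightness trend described below removed (0.73%, against 0.0932%). The highest difference, 0.24, was in the window from 67000001 to 68000000, with 0.27 on the tumor array, beside 0.01 on the control array.

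The log2 ratio on chromosome 7 moved closely with the brightness of the reference channel. Low windows of the tumor array were bright in both channels. Set against the autosomal median of each channel, their median log2 level was 0.95 in the tumor channel and 1.34 in its reference channel, and all 25 were above that median in both channels. They were not dim in the tumor channel, but less bright there than in the reference. The high windows lay at -0.53 in the tumor channel and -0.60 in its reference. To keep the 2 quantities apart, brightness was also read from the other array. Of the 25 low windows, 24 were among the brightest 25% of all autosomal windows by reference signal on the control array. That set holds 48 windows of chromosome 7 (35.0% of its windows), and all 48 were below 0 on the tumor array, with a median of -0.25. The 20 windows among the dimmest 25% (14.6% of its windows) were all above 0 on the tumor array, with a median of 0.18. On the control array the medians of these windows were -0.10 and 0.07. The other autosomes showed nearly the same, with 226 low windows of the tumor array in the brightest 25% and 8 elsewhere, 483 of 489 of their brightest windows below 0 and 4 of 516 of their dimmest. Across the 137 windows the tumor ratio and this brightness had a Pearson's r of -0.87, and over the other autosomes of -0.91. For the difference of tumor minus control these values were -0.81 and -0.78, so subtracting the control array did not remove the trend. The part of brightness in the ratios of single windows was not tested apart from the trend removal given next.

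**Figure D3:**
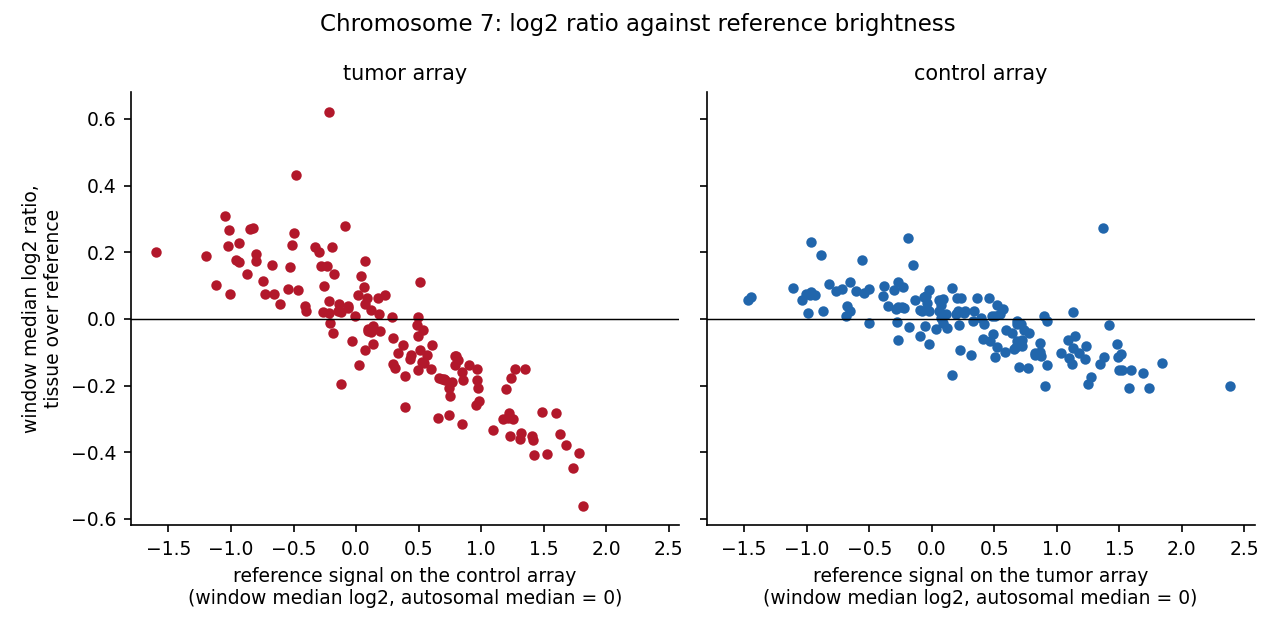
Window median log2 ratio of tissue over reference on chromosome 7 (y axis) against the median log2 reference signal of the same window on the other array, with the autosomal median at 0 (x axis), 1 point per window, tumor array on the left and control array on the right. Ratios fall with brightness on both arrays, more steeply on the tumor array, and the window at 0.62 lies above the other windows of like brightness.

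A smooth trend of the ratio on local reference brightness was learned on the autosomes other than chromosome 7 and subtracted. Of the 25 low windows of the tumor array, 0 stayed at or below -0.25, and of the high windows 2 stayed. The SD over windows fell from 0.20 to 0.091 on the tumor array and from 0.095 to 0.061 on the other. The lowest window of the tumor array, from 44000001 to 45000000, moved from -0.56 to -0.16. The 2 windows that stayed high were those from 25000001 to 26000000, at 0.65, and from 86000001 to 87000000, at 0.30, and 0.280% of all autosomal windows of the tumor array were past 0.25 in either direction with this trend removed.

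Intervals were called by a score that grows with the mean ratio over the noise and with the root of the probe number. A call needed 3 probes or more, a score of 6 or more and a mean at least 0.25 away from 0. The tumor array had 20 intervals on chromosome 7, 14 losses covering 43.9 Mb and 6 gains covering 5.96 Mb. Losses held 31.1% of its chromosome 7 probes, against 18.5% over all autosomes, and gains held 4.62%, against 14%. Both shares depended on the setting. With the limit on the mean applied after the search, 4 losses held 6.37%, against 6.5%, and 2 gains held 1.12%, against 0.708%. Among probes well above background, 9 gains held 11% of the probes, against 19.4%. Centring on the mode gave 3 gains that held 1.42%, against 7.01%. The control array had 7 intervals over 1.73 Mb, 6 gains and 1 loss, with 1.28% of its probes in gains, against 5.28% over all autosomes, and 0.031% in losses, against 0.298%. Of the 7 control intervals, 2 touched a tumor interval, as did 2 of the 20 tumor intervals. Over all autosomes, 78 of 137 control intervals touched a tumor interval, as did 68 of 284 tumor intervals. With the brightness trend removed, a new search gave 2 intervals over 0.977 Mb in the tumor, a loss from 13874076 to 13926845 with 6 probes and a gain from 24946326 to 25870445 with 17 probes, and 5 intervals in the control tissue. These tumor calls held 0.062% of the chromosome 7 probes as loss and 0.176% as gain, against 0.5% and 0.0891% over all autosomes, and the control calls 0.031% and 1.15%, against 0.0303% and 0.308%. With normexp background correction the control array had 18 intervals, all losses, so its direction turned with the correction, and 14 losses but 0 gains were called on the tumor array. The losses then held 30.1% of the chromosome 7 probes of the control array, against 19.1% over all autosomes, and 44.7% of those of the tumor array, against 33%, while gains held 5.15% over all autosomes of the tumor array and 1.46% of the control array.

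The wide losses carried the highest scores. The loss with the highest score, 18.4, ran from 121726301 to 134566270 and averaged -0.25 (SD 0.41, 841 probes) on the tumor array, beside -0.06 on the control array. The loss at the start of the chromosome, from 95276 to 5247570, scored 17.5 and was deeper, at -0.36 (SD 0.43, 380 probes), against -0.08 on the control array. Wide intervals were extended until their mean neared the limit of 0.25, so a mean close to it is set by the search. Losses from 40228251 to 46636695 (mean -0.28, SD 0.41, 325 probes) and from 33246351 to 38083220 (mean -0.25, SD 0.41, 390 probes) followed, with -0.09 and -0.10 on the control array. The fifth loss, from 81022601 to 82521145, averaged -0.34 (SD 0.42, 130 probes), against -0.13. Of all 14 losses, 13 averaged below 0 at the same probes of the control array, as did 127 of 136 over all autosomes, and 13 were brighter than the autosomal median in the reference channel. With the brightness trend removed, the means of these 5 losses on the tumor array lay between -0.07 and -0.02, and those on the control array between -0.02 and 0.04. With normexp background correction they lay between -0.45 and -0.33 for the tumor and between -0.30 and -0.22 for the control tissue, so the control values beside these losses depend on the processing.

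The gain with the largest mean was short and sparsely probed. Its probes had a mean above 0 on the tumor array under each way of computing the ratio, but with normexp background correction no gain was called on chromosome 7, against 92 over all autosomes of the tumor array. With the control array subtracted 0 gains were called there, against 65 over all autosomes, and with a score of at least 12 also 0, against 15. The gain ran from 25038826 to 25870445 with 16 probes, a mean of 55.4 kb apart. On the tumor array all 16 probes were above 0, from 0.16 to 1.33 with a median of 0.67, and the mean was 0.68 (SD over probes 0.27). On the control array 11 of the 16 were above 0, from -1.60 to 1.20 with a median of 0.35, and the mean was 0.26 (SD 0.69). The values of the arrays overlapped, and the interval was chosen by its tumor values. Both channels were well above background at 13 of the probes on the tumor array and at 12 on the control array. The window that holds it, from 25000001 to 26000000, had the highest median of all 2145 autosomal windows of the tumor array, 0.62 over 17 probes, and was number 19 from the top on the control array at 0.24. It remained the highest on the tumor array in 6 of 6 other ways of computing the ratio, with its median between 0.41 and 0.66. On the control array its place in these 6 ran from number 2, with the deposited log ratio (0.25), to number 1055, with normexp background correction (0.0087). Over these 6, the mean of the 16 probes, or of the 12 that were well above background on both arrays, lay between 0.34 and 0.72 on the tumor array and between 0.15 and 0.37 on the control array. On the tumor array the neighbouring windows did not share this level, with medians of -0.15 from 24000001 to 25000000 and -0.15 from 26000001 to 27000000. On the control array they had -0.11 and 0.27, so the second, which holds only 9 probes, lay above the 0.24 of the window with the gain. A loss from 25925901 to 29087595 was called next to the gain on the tumor array and averaged -0.29 (SD 0.43, 98 probes), against -0.02 on the control array.

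**Figure D4:**
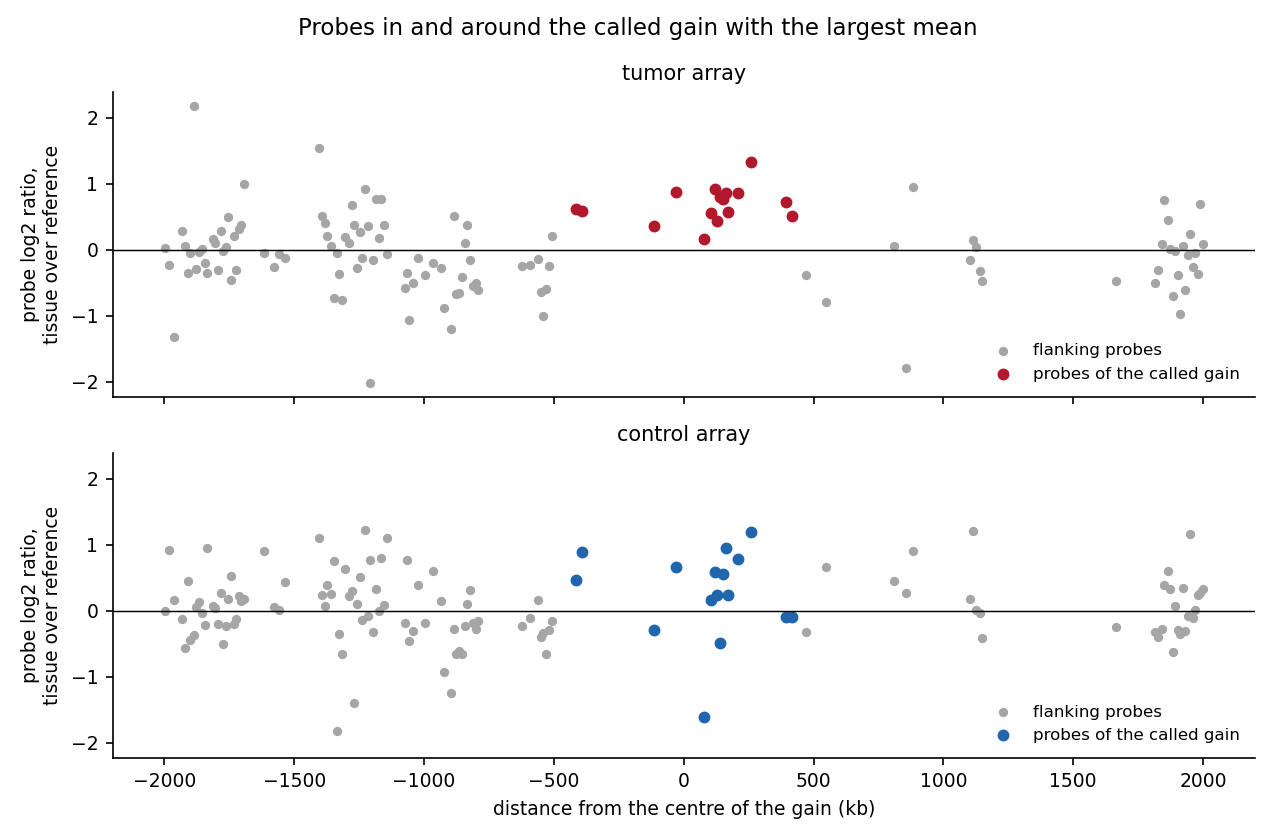
Log2 ratio of single probes against their distance in kb from the centre of the gain with the largest mean, with the 16 probes of the gain in colour and the flanking probes in gray, tumor array above and control array below. All 16 coloured probes of the tumor array lie between 0.16 and 1.33, while those of the control array spread from -1.60 to 1.20.

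The other gains of the tumor array were closer to the limit. From 110848301 to 111163770 the mean was 0.45 (SD 0.28, 31 probes), and from 72223076 to 72755920 it was 0.41 (SD 0.37, 44 probes), with 0.12 and 0.23 on the control array. A gain from 18354776 to 19606345 averaged 0.29 (SD 0.52, 92 probes) on the tumor array and 0.23 at the same probes on the control array, where a gain was called inside it from 18833001 to 19507370, averaging 0.46 (SD 0.63, 42 probes). That stretch was thus raised on both arrays by similar amounts. Gains from 78742476 to 79746145 (mean 0.30, SD 0.54, 88 probes) and from 112215451 to 114237545 (mean 0.25, SD 0.57, 174 probes) had means of 0.07 and 0.16 on the control array. All 6 gains had a mean above 0 on the control array, as did 142 of 148 over all autosomes, and all 6 were dimmer than the autosomal median in the reference channel. With the brightness trend removed, the means of these 5 gains, in the order given, became 0.27, 0.30, 0.12, 0.07 and 0.04 for the tumor and 0.05, 0.18, 0.16, -0.04 and 0.07 for the control tissue, which was then the higher at the third and at the fifth. The window from 86000001 to 87000000, in which no interval was called, was the second highest of the chromosome on the tumor array at 0.43 (SD 0.47, 21 probes), against -0.01 on the control array (SD 0.51), and the median difference at the same probes was 0.15. With probes well above background these medians were 0.42 and 0.15, and with normexp background correction 0.26 and 0.21.

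Intervals of 3 to 7 probes held mostly dim probes. The tumor loss with the largest mean in size, -1.0 (SD 0.77, 6 probes), ran from 13874076 to 13926845. On the tumor array 5 of the 6 probes were below 0 and only 1 was well above background in both channels. That 1 probe read 0.18 on the tumor array, beside 0.22 on the control array. The 6 probes averaged 0.12 on the control array. With the brightness trend removed the loss was called again, with a mean of -1.09, whereas with normexp background correction the same probes averaged 0.06 on the tumor array, so that the direction turned. On the control array 5 of the 7 intervals had 3 to 7 probes. The gain from 113693601 to 113713995 had the largest mean, 1.83 (SD 1.23, 3 probes), with 0 of 3 probes well above background, and its probes had a mean of 0.80 on the tumor array. The gain from 76199651 to 76232995 averaged 1.49 over 4 probes, of which 1 was well above background. The loss from 105562851 to 105585095 averaged -1.50 over 3 probes, of which 0 were well above background, between -2.02 and -0.46. These 3 intervals had 1 well measured probe among them. Gains from 85248001 to 85399745 (mean 1.06, 7 probes) and from 114282826 to 114327270 (mean 1.20, 5 probes) were of the same kind, with 1 and 2 probes well above background. The remaining control gain, from 31614651 to 32401870, was wider and averaged 0.42 (SD 0.66, 62 probes), against 0.09 on the tumor array.

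Among the 18 autosomes chromosome 7 was towards the lower end by its median and towards the top by its unevenness. Its window median on the tumor array was the sixth lowest, between -0.07 on chromosome 14 and -0.01 on chromosome 18, and the lowest was -0.25 on chromosome 12. Its SD over windows, 0.20, was the fifth highest on the tumor array, below 0.21 on chromosome 6 and above 0.19 on chromosome 12 and 0.17 on chromosome 14. The SD of the tumor array was 2.10 times that of the control array, within a range over the autosomes from 1.70 on chromosome 8 to 2.54 on chromosome 18. By the share of low windows on the tumor array, chromosome 7 was the fourth, with 18.2%, after chromosome 12 with 29 of 58 windows, 29.0% on chromosome 6 and 19.4% on chromosome 3, and it was followed by 17.9% on chromosome 2. By the share of high windows it was thirteenth. Its highest window had no equal on the other autosomes, where the next highest was 0.46 on chromosome 1. That window of chromosome 7 held only 17 probes, and the next highest of the chromosome, with 21 probes, was number 4 from the top at 0.43. The lowest window of chromosome 7, -0.56, was matched on chromosome 4 at -0.56. With 1 array per tissue these orders have no error, and neighbours that differ by a few windows cannot be ranked.

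**Figure D5:**
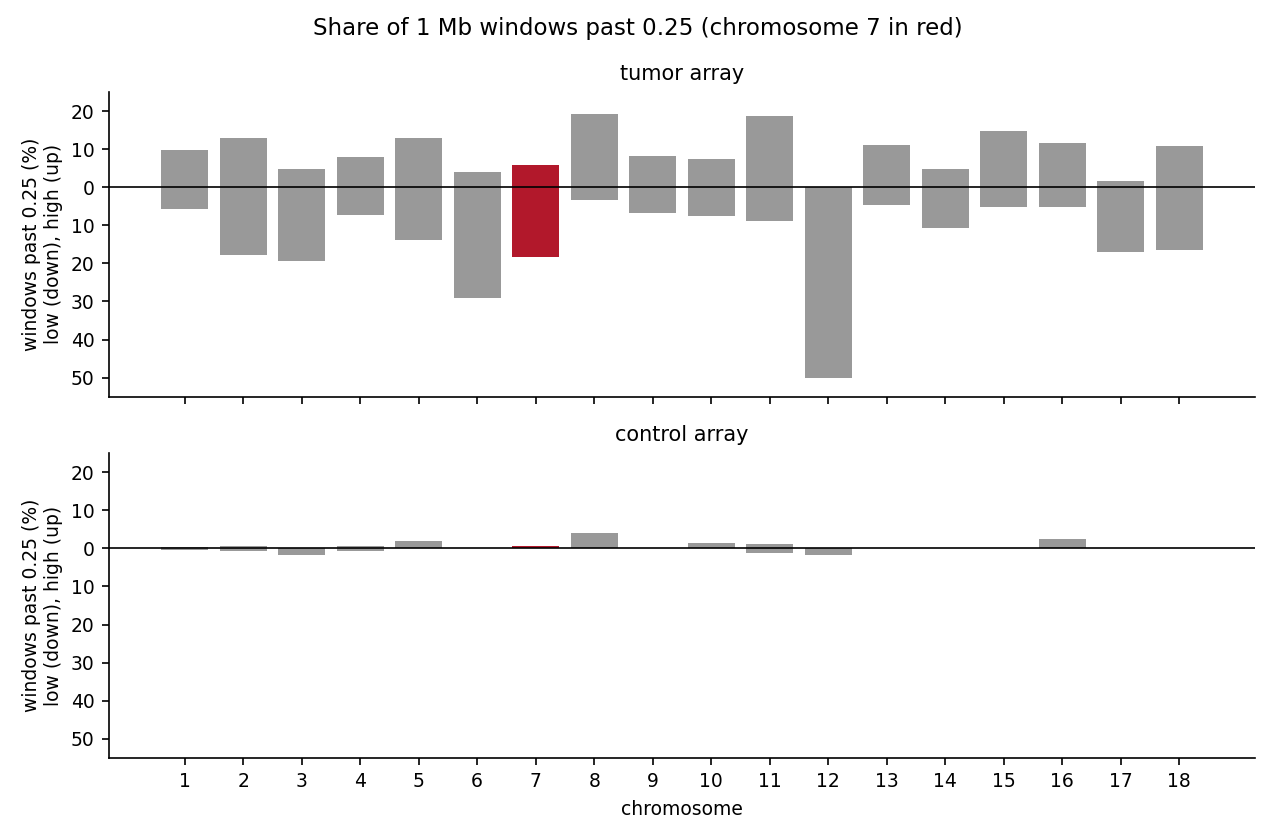
Share of 1 Mb windows with a median log2 ratio at or above 0.25 (upward bars) and at or below -0.25 (downward bars) on each autosome, in percent, with the tumor array above, the control array below and chromosome 7 in red. On the tumor array chromosome 7 has 18.2% low and 5.84% high windows, and on the control array 0% and 0.73%.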

How the data were processed

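DNA of 1 tumor and 1 control tissue was hybridised against reference liver. Per the submitters' processing notes, the scans were read with Agilent Feature Extraction 11.0.1.1. The authors deposited, per spot, intensity values (median, background and processed signals, in which the software had removed background and applied 1 scaling factor per dye). A log10 ratio of Cy5 over Cy3 was deposited as well, which the series table repeats (largest difference 0, column medians 0). The deposited ratio is set to 0 at 226 chromosome 7 spots of the tumor array and at 227 of the control array. The genome build is not given in the sources used here, and 941 probes lie beyond the last chromosome 7 gene of the Sscrofa11.1 annotation, which was used only to check which genes chromosome 7 carries.

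Log2 ratios of Cy3 over Cy5 processed signals were centred on the median of chromosomes 1 to 18 of each array, without loess or quantile normalization. Control spots and outlier flags were left out (6 probes of chromosome 7 on the tumor array, 0 on the control array), and 1 saturated spot was kept. Medians were taken over 1 Mb windows that hold 5 or more probes. Intervals were searched recursively, keeping only stretches whose mean passes the limit at each step, and the search was tested on simulated data. For the brightness trend, a lowess curve (fraction 0.3) was fitted on the local log2 reference brightness, averaged within 250 kb to either side on the opposite array, learned without chromosome 7. Named were the 5 lowest and 5 highest windows per array and in the difference, not all of which are printed, the 5 intervals with the highest score per direction and the 3 with the largest mean. The chromosome, windows, thresholds and alternatives were chosen with earlier results of these data known. With no replicates and no molecule counts, the number of arrays limits the precision.

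Software was limma 3.58.1 (R 4.3.3) for normexp and, under Python 3.11.15, statsmodels 0.14.6 for lowess, pandas 2.3.3 and numpy 2.4.6 for tables, scipy 1.17.1 for intervals over windows, numba 0.67.0 for the search and matplotlib 3.10.9 for plots.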

Additional observations from a re-analysis of the deposited data

How the results depend on the processing

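Counts set beside these are 25 low and 8 high tumor windows, 1 high control window, 3 difference windows (tumor minus control), 20 tumor intervals (49.9 Mb) and 7 control intervals (1.73 Mb). A share after "against" is over all autosomal windows, or probes for intervals. Values within 1.5 times these counts are not listed. Removal of the brightness trend gave 0 low (against 0.0932%) and 2 high tumor windows (1.46%, against 0.186%), 0 high control windows (against 0.0932%), 1 low difference window (0.73%, against 0.0932%) and 2 tumor intervals over 0.977 Mb (loss 0.0623%, against 0.5%, and gain 0.176%, against 0.0891%). Normexp with an offset of 50, run on median signals for want of mean signals, gave 38 low (27.7%, against 18.4%) and 3 high tumor windows (2.19%, against 3.12%), 17 low (12.4%, against 9.14%) and 0 high control windows (against 1.72%), 0 difference windows (low against 0.0932%, high against 0.0466%), a control median of -0.043, 18 control losses over 41.1 Mb (30.1%, against 19.1%, with 0 gains, against 1.46%), and 14 losses (44.7%, against 33%) with 0 gains (against 5.15%) on the tumor array. Centring on the mode gave 3 high tumor windows (2.19%, against 4.85%), 3 high control windows (2.19%, against 1.82%), 20 low difference windows (14.6%, against 10.3%), a control median of 0.038 and 10.5 Mb on the control array, all gains (6.4%, against 13%, with 0 losses, against 0.0107%). Probes well above background gave 13 high tumor windows (9.49%, against 13.2%), 6 difference windows, 4 of them low (2.92%, against 2.05%) and 2 high (1.46%, against 2.75%), and 2 control intervals, both gains (1.13%, against 0.471%, with 0 losses, against 0.22%). The deposited log ratio gave 5 high tumor windows (3.65%, against 6.71%) and 0 high control windows (against 0.0466%).

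Windows of 0.5 Mb (269) gave 52 low (19.3%, against 13.2%) and 22 high tumor windows (8.18%, against 11.2%), 1 low (0.372%, against 1.1%) and 5 high control windows (1.86%, against 2.16%) and 17 difference windows, 12 low (4.46%, against 2.95%) and 5 high (1.86%, against 2.74%). Windows of 2 Mb (69) gave 8 low (11.6%, against 11.3%) and 1 high tumor window (1.45%, against 6.22%), 0 high control windows (against 0.0929%) and 0 difference windows (low against 1.49%, high against 0.186%). A threshold of 0.4 gave 5 low (3.65%, against 2.94%) and 2 high tumor windows (1.46%, against 0.326%), 0 high control windows (against 0%) and 0 difference windows (low against 0%, high against 0.0466%). With at least 20 probes per window, an alternative chosen after seeing the data, 0 high control windows (against 0.608%) and 1 low difference window (0.752%, against 1.68%) were left.

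With the limit on the mean applied after the search, the tumor array had 6 intervals over 11.9 Mb (losses 6.37% of probes, against 6.5%, and gains 1.12%, against 0.708%) and the control array 1 loss over 0.0222 Mb (0.0311%, against 0.00357%, with 0 gains, against 0.154%), because wide intervals under the limit are then dropped whole. A mean of at least 0.1 gave 13 tumor intervals over 100.3 Mb (losses 50%, against 29.5%, and gains 22.2%, against 43.3%) and 54.1 Mb on the control array (gains 37.1%, against 38.7%, and losses 0.0311%, against 4.05%), and a mean of at least 0.4 gave 15.3 Mb on the tumor array (losses 9.51%, against 7.41%, and gains 0.945%, against 3.02%). A score of at least 12 left 4 tumor losses over 29.2 Mb (20.1%, against 11.5%, with 0 gains, against 4.41%) and 0 control intervals over 0 Mb (losses against 0%, gains against 0.351%). At least 10 probes gave 5.39 Mb on the control array, all gains (2.81%, against 5.53%, with 0 losses, against 0.297%). With the control array subtracted, 13 tumor intervals over 19.3 Mb were called, all losses (11.9%, against 10.8%, with 0 gains, against 1.19%). Apart from thresholds, window widths and the limit after the search, which change the counts by construction, the cause was not tested.

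The tumor median over windows stayed inside its interval in 9 of 9 alternatives. The GC correction was not run, because no probe sequences were used here. No paired analysis was possible because each tissue has 1 array. One or both channels were not well above background at 16.9% of the chromosome 7 probes in the tumor array and 19.8% in the other.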

Other observations

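Of the probes of chromosome 7 at or beyond 1 in size, 37 were at or below -1 on both arrays (0.384% of the probes kept on both, against 0.366% over all autosomes) and 31 at or above 1 on both (0.322%, against 0.404%). Across the 9632 probes kept on both arrays, Pearson's r between the arrays was 0.31, given as a description, where it was 0.76 across windows.

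The reference channels of the arrays had nearly the same profile along chromosome 7, with a Pearson's r of 0.99 across the 137 windows, and so did the tissue channels, with 0.97. Neighbouring windows resembled each other, with an r between a window and the next of 0.53 for the tumor tissue and 0.39 for the control tissue over 136 pairs.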
